A study of Mus musculus with 8 samples.

Results

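B16-F10 cells, a mouse melanoma line, were compared after growth on 2 kinds of matrix made by smooth muscle cells in which Klf4 had been targeted by siRNA. In both libraries the smooth muscle cells had received siKLF4 for 72 hours and were then kept for 72 hours in SFM or in TCM, as the labels abbreviate the media. TCM is taken to be the tumor conditioned media of the series title, and no source used here spells out SFM. The smooth muscle cells were then lysed, the matrix was washed, and the melanoma cells grew on it for 24 hours before their RNA was taken. The pair is TCM siKLF4 against SFM siKLF4, with 1 library a side and no replicate, so its differences were described and not tested. The other 6 of the 8 libraries form the same media pair after siNT, after siFN, and after siKLF4 with siFN (siKLF4-siFN), also with 1 library per condition. The values are FPKM, that is, read fragments counted relative to gene length and to the size of the library. A gene entered the comparison if its FPKM reached 5 in 1 or both siKLF4 libraries, which 2758 of 46477 genes reached, and its difference is log2(FPKM + 1) in TCM minus the same in SFM. Ciao1, at 5.001, was the gene just inside that limit, and Zfp655, at 4.989, the one just outside.

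KLF4 is a zinc finger transcription factor that takes part in the switch of smooth muscle cells from a contractile state to one that divides and lays down matrix. Fibronectin, the product of Fn1, is one of the matrix proteins to which melanoma cells bind through integrins. The medium and the siRNA acted on the smooth muscle cells only, and the melanoma cells met what they left in the matrix. Klf4 and Fn1 in the melanoma cells therefore do not check the knockdown. Klf4 had an FPKM of 6.56 in SFM siKLF4 and 6.75 in TCM siKLF4. Fn1 stood at 2.32 and 2.63, under the limit in both.

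The RNA carried melanocyte markers and almost none of the other cell types looked for. Of 7 melanocyte lineage markers, 5 passed the limit. Tyrp1, an enzyme of pigment synthesis, had an FPKM of 238 in SFM and 208 in TCM. Pmel, which builds the fibrils of the melanosome, had 83.9 and 88.7. Mitf, the master transcription factor of the lineage, was at only 0.84 and 0.56, and the pigment enzyme Tyr at 3.61 and 2.38. None of the 8 smooth muscle markers passed, with a summed FPKM of 1.67 in SFM and 2.24 in TCM and with Acta2 and Myocd at 0 in both libraries. The 8 fibroblast markers summed to 0.278 in each, the 7 endothelial markers to 0.0319 and 0.0304, and the 8 leukocyte markers to 3.39 and 2.70, nearly all of it Cd68. The estimated depth was 11500000 reads for SFM siKLF4, the lowest of the 8 libraries, and 14300000 for TCM siKLF4. The highest was 22900000.

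Few genes differed between the media after siKLF4. Of the 2758 genes, 163 (5.91%) were higher in TCM by at least 0.5 on the log2 scale and 107 (3.88%) were lower. At a difference of at least 1, 12 genes (0.435%) were higher and 31 (1.12%) lower. The remaining 2488 genes (90.2%) differed by less than 0.5. The median difference of all genes was 0.14, so the genes as a whole sat slightly above 0, and 2010 of them (72.9%) were higher in TCM. Centred on that median, 71 genes were higher by at least 0.5 and 176 lower, which reverses the balance between the directions. At a difference of at least 1, centring gave 9 higher and 38 lower. The unscaled differences are given below, and lists of genes are read against the median of 0.14. Rn7s2, at 1.20, was the named gene just past a difference of 1 upwards and Phpt1, at 0.85, the one just short of it. Rab39b, at -1.003, and Eif2s2, at -0.99, stood on either side of that limit downwards.

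**Figure D1:**
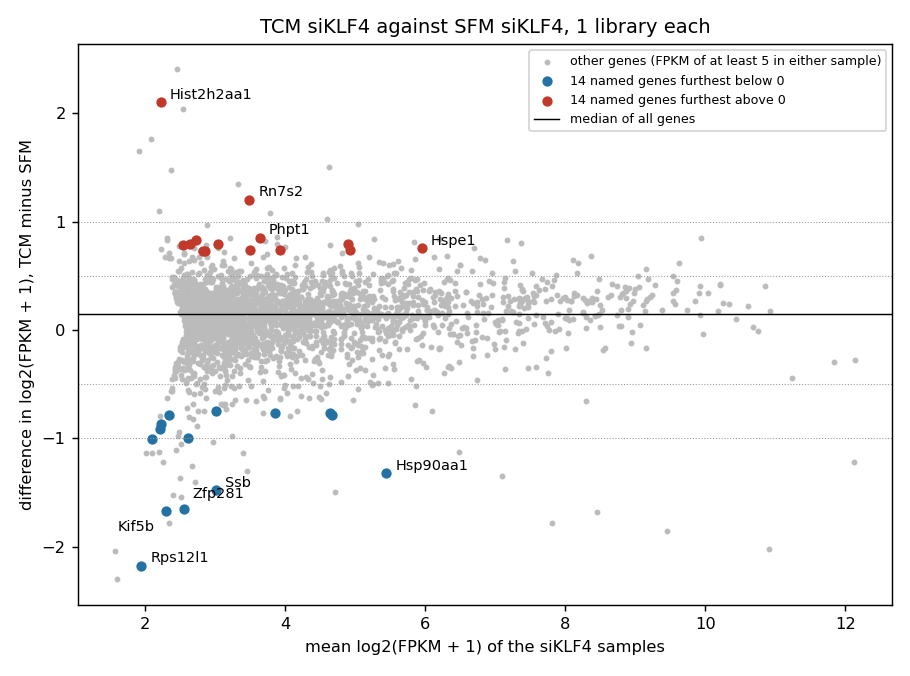
Difference in log2(FPKM + 1), TCM siKLF4 minus SFM siKLF4, against the mean log2(FPKM + 1) of the pair, for the 2758 genes whose FPKM reached 5 in 1 or both libraries. Dotted lines mark differences of 0.5 and 1, and 90.2% of genes lie between the inner lines. Hsp90aa1 is the one labelled gene at high expression that lies more than 1 below 0.

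The other media pairs differed in more genes. After siNT, 633 of 2812 genes (22.5%) differed by at least 0.5 in either direction and 105 (3.73%) by at least 1. After siFN the counts were 958 of 2821 (34.0%) and 224 (7.94%), and after siKLF4-siFN they were 1365 of 2955 (46.2%) and 388 (13.1%). In the siKLF4 pair the count at 0.5 in either direction was 270. As a lower end of the scale, 2 libraries of the same medium were picked because they were closely alike, TCM siFN and TCM siKLF4-siFN. They had 47 of 2589 genes (1.82%) past 0.5 and 6 past 1. Other libraries of the same medium differed more: the summed FPKM of 32 mitosis genes was 118 in SFM siNT and 14.9 in SFM siFN. By its counts the siKLF4 pair lay between the picked libraries and the siNT pair. With 1 library per condition, the differences between pairs could be tested only in a model over all 8 libraries. That model asked whether TCM minus SFM with siKLF4 (the siKLF4 and siKLF4-siFN pairs) differed from TCM minus SFM without it. Of 6917 genes whose mean FPKM reached 1, limma with Benjamini-Hochberg adjustment called 0 (0%) at an adjusted p below 0.05, and 78 (1.13%) had an unadjusted p below 0.05. The siKLF4 and siKLF4-siFN pairs, which this model averages, often had differences of opposite sign, as the genes below show. An absent call therefore does not show that the pairs are alike.

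**Figure D2:**
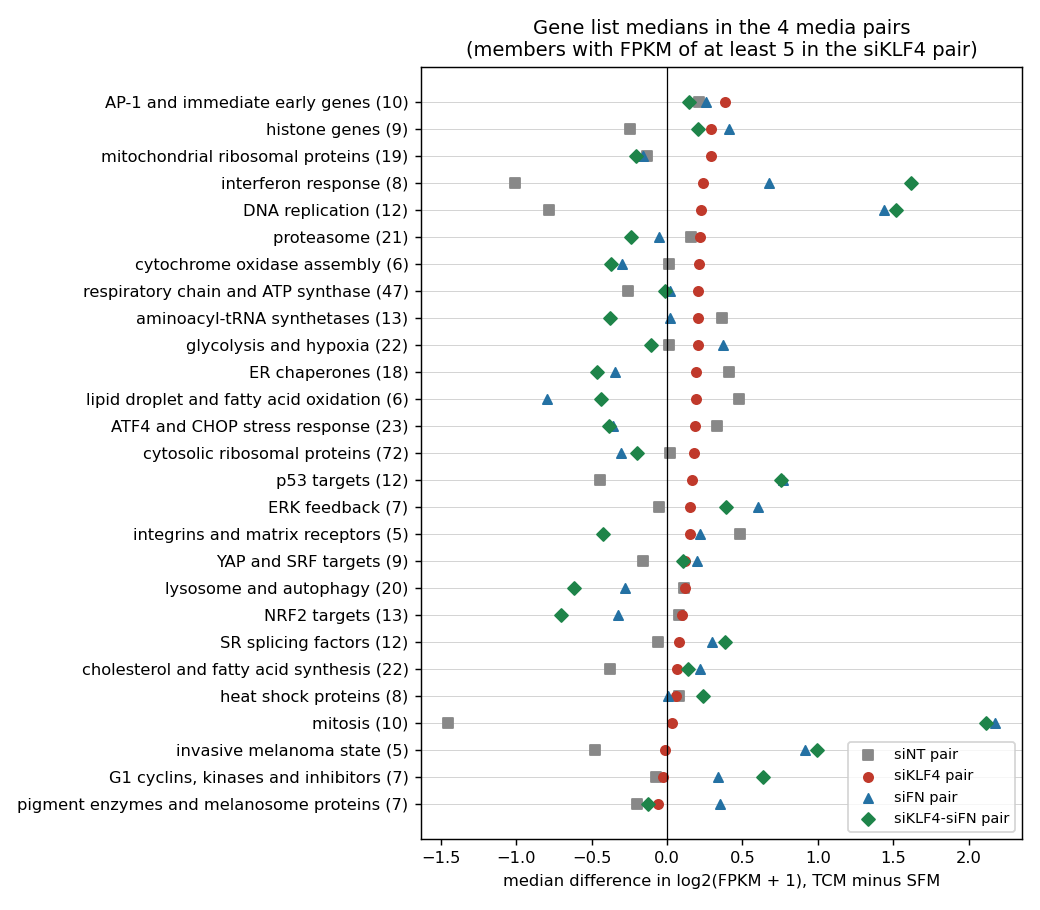
Median difference in log2(FPKM + 1), TCM minus SFM, of each gene list in the 4 media pairs, 1 library a condition. Lists with at least 5 members past the limit in the siKLF4 pair are shown, with that number in parentheses. The siKLF4 medians lie between -0.06 and 0.38, while mitosis spans -1.45 to 2.17 over the other pairs.

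Genes of cell division had nearly the same level on both matrices. Of 32 mitosis genes, 10 passed the limit, and their median difference was 0.03 against 0.14 for all genes, with 0 higher and 1 lower by at least 0.5. The summed FPKM of the 32 genes was 114 in SFM siKLF4 and 109 in TCM siKLF4. These sums were close to the 118 of SFM siNT, the 114 of TCM siFN and the 116 of TCM siKLF4-siFN, and far above the 34.8 of TCM siNT, the 14.9 of SFM siFN and the 13.5 of SFM siKLF4-siFN. Both siKLF4 libraries thus stood with the 3 high libraries, and each other media pair joined a high library to a low one. In RNA of whole cultures, fewer dividing cells and less of these RNAs per cell cannot be told apart. The median difference of the same 10 genes was -1.45 after siNT, 2.17 after siFN and 2.12 after siKLF4-siFN. Top2a, the topoisomerase that untangles chromosomes before division, was the member past 0.5, with an FPKM of 9.15 in SFM siKLF4 and 5.82 in TCM siKLF4, a difference of -0.57. Cdc20, which activates the anaphase-promoting complex, went the other way with 9.72 and 13.0. The survivin gene Birc5 had 9.31 and 11.3, and Ube2c, the ubiquitin-conjugating enzyme of the same complex, had 4.82 and 6.01.

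DNA replication genes behaved alike. Of 33, 12 passed, with a median of 0.23 and none past 0.5, while the medians of the same 12 were -0.78 after siNT, 1.44 after siFN and 1.51 after siKLF4-siFN. Rrm2, the ribonucleotide reductase subunit that limits the supply of deoxynucleotides, had an FPKM of 23.1 in SFM siKLF4 and 28.0 in TCM siKLF4. It stood at 25.4 in SFM siNT against 8.79 in TCM siNT, and at 2.98 in SFM siFN against 26.3 in TCM siFN. The helicase subunits Mcm3 and Mcm7 had differences of 0.30 and 0.32, and Uhrf1, which maintains DNA methylation behind the fork, of 0.29. Of 19 G1 cyclins, kinases and inhibitors, 7 passed, with a median of -0.03. Ccnd2 (cyclin D2) had 46.3 in SFM and 32.8 in TCM, a difference of -0.49, and Myc, counted in this list and in the immediate early list, had 9.98 and 15.3, a difference of 0.57.

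Interferon response genes lay slightly above the median of all genes. Of 39, 8 passed the limit with a median of 0.24, against 0.14 for all genes, and none reached 0.5. Cxcl10, a chemokine that draws T cells, had an FPKM of 38.4 in SFM siKLF4 and 53 in TCM siKLF4. In the other libraries Cxcl10 stood at 42.8 in SFM siNT, 7.51 in TCM siNT, 15.0 and 50.8 in SFM and TCM siFN, and 3.82 and 51.2 in SFM and TCM siKLF4-siFN. Again both siKLF4 libraries lay with the high group. Ccl5, another chemokine, had 6.55 and 7.99, Ifit3, an antiviral effector, 5.47 and 7.26, and H2-K1, an MHC class I heavy chain, 10.1 and 14.2. The list's median was -1.01 after siNT, 0.68 after siFN and 1.62 after siKLF4-siFN.

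Of the 27 lists with at least 5 members past the limit, 0 had a median of 0.5 or more away from 0 in the siKLF4 pair. The counts were 3 after siNT, 7 after siFN and 8 after siKLF4-siFN. The 31 lists together held 869 genes, of which 428 passed, and 19 of those differed by at least 0.5, which is 4.44%, against 9.79% of all genes and 5.00% of protein-coding genes. Of these, 16 were higher and 3 lower (Hsp90aa1, Ccng1 and Top2a). Ccng1, the p53 target cyclin G1, had an FPKM of 72.6 in SFM siKLF4 and 44.7 in TCM siKLF4, a difference of -0.69. It was the one of the 12 measured p53 targets past 0.5, and Phlda3, Bax and Plk2 were higher in TCM by 0.47, 0.43 and 0.43.

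The stress lists moved little. Of 30 genes of the ATF4 and CHOP response, which restores protein synthesis and amino acid supply after stress, 23 passed with a median of 0.19. Ppp1r15a (GADD34), which guides dephosphorylation of eIF2, was the member past 0.5, with 61.6 in SFM siKLF4 and 99.3 in TCM siKLF4. Over the other libraries it ran from 58.8 in SFM siNT to 179 in SFM siKLF4-siFN. Ddit3 (CHOP) itself had 29.9 and 41.6, a difference of 0.47. Of 20 ER chaperones, 18 passed, with a median of 0.19 and none past 0.5. Calr was higher at 94.5 and 127, while Hsp90b1, the HSP90 of the endoplasmic reticulum, was lower at 51.6 and 36.6.

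Heat shock proteins differed in both directions. Of 15, 8 passed with a median of 0.06, 1 higher and 1 lower by at least 0.5. Hsp90aa1, the stress-inducible cytosolic HSP90, had an FPKM of 67.9 in SFM siKLF4 and 26.5 in TCM siKLF4, a difference of -1.32. Its ratio of TCM to SFM was 0.391, with a 95% interval of 0.365 to 0.419 that covers counting error only and rests on the estimated depths. Hsp90ab1, the constitutive partner, had 456 and 547, a difference of 0.26. In the other libraries Hsp90aa1 stood at 59.8 in SFM siNT, 25.9 in TCM siNT, 44.3 and 55.9 in SFM and TCM siFN, and 7.09 and 65.0 in SFM and TCM siKLF4-siFN. SFM siKLF4 was the highest of the 8 libraries and TCM siKLF4 number 6.

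Hspe1, the mitochondrial co-chaperonin HSP10, went the other way with 46.6 in SFM siKLF4 and 79.2 in TCM siKLF4, a difference of 0.75 and a ratio of 1.70 (95% counting interval 1.53 to 1.89). Its partner Hspd1 (HSP60), which is transcribed from the same region on the opposite strand, had 46.4 and 44.8, a difference of -0.05. Hspe1 ran from 55.6 to 128 in the other 6 libraries, so SFM siKLF4 was the lowest of all 8. The heat shock element, the sequence bound by heat shock factors, was searched in both genes as GAANNTTC or TTCNNGAA on either strand, and overlapping matches were counted. The promoter of Hspe1 in RefSeq (GRCm38.p6, chr1:55087898-55088197, plus strand, 250 bases before to 50 after the start) held 3 overlapping matches, and 1 of the 2 Hspd1 windows in the table, on the minus strand of the same region, held the same 3. It is shown because both genes share it, with the matches in capitals.

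Hspe1: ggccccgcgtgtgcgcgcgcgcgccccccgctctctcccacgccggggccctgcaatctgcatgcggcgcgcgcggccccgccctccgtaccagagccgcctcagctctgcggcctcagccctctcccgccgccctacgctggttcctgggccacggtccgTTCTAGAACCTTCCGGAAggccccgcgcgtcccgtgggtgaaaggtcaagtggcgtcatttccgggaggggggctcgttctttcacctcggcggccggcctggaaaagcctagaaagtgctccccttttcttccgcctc

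At least 1 such match was found in 15.1% of all 27025 promoter windows of that table and in 11.0% of the 1512 windows of genes past the limit. It is a match of letters and not a measured site. Hspa8, the constitutive HSC70, had an FPKM of 312 in SFM siKLF4 and 317 in TCM siKLF4, and the inducible Hspa1b had 5.67 and 7.34.

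Among the 14 named genes lowest in TCM, 13 were protein coding. After the pseudogene Rps12l1, described below, the largest was Kif5b, a heavy chain of the motor kinesin-1, with 7.73 in SFM siKLF4 and 1.75 in TCM siKLF4, a difference of -1.67. Zfp281, a zinc finger transcription factor, had 9.39 and 2.31, a difference of -1.65. Ssb, the La protein that protects the ends of RNA polymerase III transcripts, had 12.5 and 3.85, a difference of -1.48. The ratios of TCM to SFM were 0.227, 0.246 and 0.308. Each of these 3 genes was highest of all libraries in SFM siKLF4 and number 7 of 8 in TCM siKLF4, and each was lowest in SFM siKLF4-siFN, at 0.519, 0.373 and 0.934.

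Further down this order stood Rab39b, a small GTPase of vesicle traffic, with 5.07 and 2.03, and Tax1bp1, an autophagy receptor, with 5.33 and 2.37. Eif2s2, the beta subunit of the initiation factor eIF2, had 7.59 and 3.32, a difference of -0.99. The other eIF2 subunits, looked up as partners, had differences of -0.06 (Eif2s1) and -0.01 (Eif2s3x). Eif3a, the largest subunit of the initiation factor eIF3, had 17.8 and 10.1, and Eif3j2, a copy of its loosely bound subunit, 32.5 and 18.4. Their partners Eif3b and Eif3c had differences of 0.27 and 0.11. Ranbp6, of the importin family, had 5.31 and 2.47, the splicing factor Zranb2 5.68 and 2.88, the DNA-binding protein Purb 31.6 and 18.2, and Smim10l1 9.43 and 5.22.

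These 14 genes were chosen by their difference in the siKLF4 pair, and the other pairs, which share no library with it, gave the following. In the siNT pair all 14 were lower in TCM as well, 11 of them by at least 0.5. In the siFN pair 2 were lower by at least 0.5 and 5 were higher by at least 0.5. In the siKLF4-siFN pair 1 was lower and 13 were higher by at least 0.5, and SFM siKLF4-siFN was the lowest library for 13. The exception was Rps12l1, which was highest there. Whether the siKLF4 and siKLF4-siFN pairs differ was not tested, because the model over all 8 libraries averages them. In that model the adjusted p of each of the 28 named genes was 1 (limma).

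**Figure D3:**
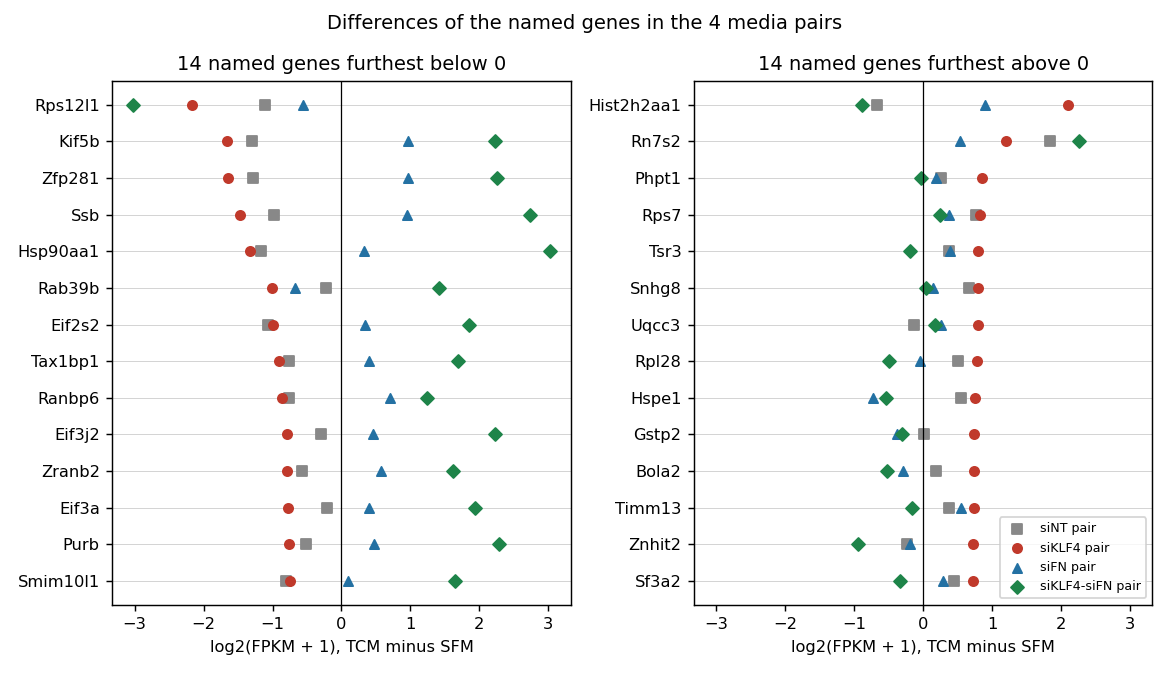
Difference in log2(FPKM + 1), TCM minus SFM, of the 14 lowest and 14 highest named genes of the siKLF4 pair, in each of the 4 media pairs (1 library a condition). On the left, the siKLF4 and siNT points lie below 0 for all 14 genes and the siKLF4-siFN points above 0 for 13, with Rps12l1 the exception.

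Of all 107 genes lower by at least 0.5, 84 were lower in the siNT pair too and 52 of them by at least 0.5, with a median of -0.50. Among all genes of the siNT pair, 13.1% were lower and 9.46% higher by at least 0.5. Of the genes that passed the limit in both pairs, 46 were lower by at least 0.5 in both, which is 43.0% of the siKLF4 list and 12.5% of the siNT list of 367. In the siFN pair 22 of the 107 were lower and 33 higher by at least 0.5, against 17.8% and 16.2% of all genes. In the siKLF4-siFN pair 22 were lower and 72 higher by at least 0.5, with a median of 1.32, against 26.8% and 19.4% of all genes. Of the 163 genes higher by at least 0.5, 40 were also higher in the siNT list, which is 24.5% of the siKLF4 list and 15.0% of the siNT list. In the siKLF4-siFN pair 23 of the 163 were higher and 48 lower by at least 0.5. Across genes, Pearson's r of the siKLF4 differences was 0.32 with those of the siNT pair (n = 2646 genes), -0.03 with the siFN pair (n = 2633) and -0.35 with the siKLF4-siFN pair (n = 2658). Genes are not independent replicates, and no p is given.

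The genes higher in TCM had smaller differences. Phpt1, a phosphatase that acts on phosphohistidine, had an FPKM of 8.28 in SFM siKLF4 and 15.7 in TCM siKLF4, a difference of 0.85. In the other 6 libraries it ran from 7.75 to 9.83, so TCM siKLF4 stood above all of them. Tsr3, which modifies 18S ribosomal RNA, had 5.22 and 9.80. Snhg8, a host gene of small nucleolar RNA, had 21.6 and 38.2. Timm13, a chaperone of the mitochondrial intermembrane space, had 22.6 and 38.3, and Bola2, which takes part in iron-sulphur cluster transfer, 10.8 and 18.6. Znhit2, a zinc finger HIT domain protein, had 4.49 and 8.10.

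Phpt1, Tsr3, Uqcc3, Sf3a2 and Gstp2 differed by at least 0.5 in the siKLF4 pair and by less than that in each other pair. Phpt1 had 7.75 and 9.43 after siNT, 8.54 and 9.83 after siFN, and 8.23 and 8.06 after siKLF4-siFN. Tsr3 had 6.19 and 8.37 after siNT, 6.12 and 8.34 after siFN, and 9.15 and 7.89 after siKLF4-siFN. Uqcc3, an assembly factor of respiratory complex III, had 3.74 in SFM siKLF4 and 7.21 in TCM siKLF4, against 5.83 and 5.25 after siNT, 5.38 and 6.67 after siFN, and 5.27 and 6.09 after siKLF4-siFN. Its 2 extreme libraries of 8 were those of the siKLF4 pair, at about 35 and 85 reads, and only TCM passed the limit. The genes of this paragraph were named for their difference in this pair, which favours such ranks. Sf3a2, a subunit of the U2 small nuclear ribonucleoprotein, had 4.61 and 8.28, against 3.99 and 5.80 after siNT, 4.84 and 6.10 after siFN, and 7.35 and 5.61 after siKLF4-siFN.

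Gstp2, a glutathione S-transferase, had 7.75 in SFM siKLF4 and 13.6 in TCM siKLF4, against 12.8 and 12.8 after siNT, 14.3 and 10.8 after siFN, and 16.6 and 13.2 after siKLF4-siFN. Summed with its paralog Gstp1, the values were 111 and 136, a difference of 0.29. For Gstp2 alone, SFM siKLF4 was the lowest of the 8 libraries and TCM siKLF4 lay within the range of the others. That a gene passed 0.5 in this pair and in no other was not tested as a difference between pairs, beyond the model given above.

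Some ribosomal protein genes were higher in TCM. Of 79 cytosolic ribosomal protein genes, 72 passed, with a median of 0.18 against 0.14 for all genes, 7 higher (9.72%, against 5.91% of all genes) and 0 lower by at least 0.5. Of all 1881 protein-coding genes, 61 were higher by at least 0.5, and 36 of these were among the 377 with the shortest transcripts. The part of transcript length in the ribosomal count was not tested. Rps7 had 3.96 in SFM siKLF4 and 7.79 in TCM siKLF4, Rpl28 had 3.42 and 6.62, and Rplp1, a protein of the ribosomal stalk, 232 and 358. Rplp1 stood at 436 and 375 after siNT, 486 and 314 after siFN, and 418 and 308 after siKLF4-siFN, so SFM siKLF4 was the lowest library. Rps21, Rps2 and Rplp2 had differences of 0.57, 0.53 and 0.51. Many processed copies of such genes exist, and how reads shared with them were counted is not given in the sources used here.

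Genes of mitochondrial function gave medians slightly above the 0.14 of all genes. Of 49 mitochondrial ribosomal proteins, 19 passed with a median of 0.29, and 16 of the 19 lay above the median of all genes. Mrpl34 had 19.6 in SFM siKLF4 and 29.3 in TCM siKLF4, and at 0.56 was the 1 member past 0.5. Of 65 genes of the respiratory chain and ATP synthase, 47 passed with a median of 0.21 and none past 0.5, and Ndufb3, a subunit of complex I, had the largest difference at 0.46. Of 23 cytochrome oxidase assembly factors, 6 passed with a median of 0.21. Sco2, which delivers copper to that enzyme, had 2.95 and 5.47, a difference of 0.71.

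Histone genes had a median of 0.29 over the 9 of 29 that passed, against 0.14 for all genes. Of the 9, 3 were higher by at least 0.5, against 5.91% of all genes. The near-identical copies Hist2h2aa1 and Hist2h2aa2 are both counted among the 3. Hist1h1c, a linker histone, had 35.5 in SFM siKLF4 and 54.3 in TCM siKLF4, a difference of 0.60. Hist2h2aa1 had 1.25 and 8.66, the highest difference of a named gene at 2.10, from roughly 73 reads in TCM. It is a near-identical copy of Hist2h2aa2, which had 13.2 and 21.5, and the sum of both was 14.5 and 30.1, a difference of 1.01. In the other pairs the difference of the sum was 1.05 after siNT, 0.49 after siFN and -0.21 after siKLF4-siFN.

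Immediate early genes had a small positive difference. Of 24 genes of AP-1 and the early response to growth factors, 10 passed with a median of 0.38, against 0.14 for all genes. Of these, 9 lay above 0, as did 72.9% of all genes. Against the median of all genes, 6 lay above and 4 below. The 1 member past 0.5 was Myc, given above. Ier2 had 15.7 in SFM siKLF4 and 22.1 in TCM siKLF4, Ier3 had 69.2 and 95.3, and Mafk 3.67 and 5.41. With a pseudocount of 5 the median was 0.25, and with an FPKM limit of 1 it was 0.26. The list's median was 0.21 after siNT, 0.26 after siFN and 0.15 after siKLF4-siFN.

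Pigment and matrix genes differed little. Of 18 pigment enzymes and melanosome proteins, 7 passed with a median of -0.06, and 0 of them lay above the median of all genes. Dct, an enzyme of the same pathway, had 89.5 in SFM siKLF4 and 86.0 in TCM siKLF4, and Mlana, a melanosome protein, 36.5 and 34.7. Of 20 markers of the invasive melanoma state, 5 passed with a median of -0.01, and the intermediate filament gene Vim had 209 and 215. Of 33 integrins and matrix receptors, 5 passed with a median of 0.15, and the largest difference was 0.22 (Zyx, a focal adhesion protein). Of 24 matrix proteins, 3 passed with a median of 0.15. Of 23 matrix proteases and inhibitors, 2 passed, Mmp14 with a difference of -0.24 and Adamts1 with -0.01. Of 16 genes of the TGF-beta response, 1 passed, Id2, with 32.7 and 33.5.

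Metabolic lists also stayed close to the median of all genes. Of 32 genes of glycolysis and hypoxia, 22 passed with a median of 0.20, and Pkm, the pyruvate kinase, had 194 in SFM siKLF4 and 267 in TCM siKLF4. Of 35 genes of cholesterol and fatty acid synthesis, 22 passed with a median of 0.07. The sterol enzymes Mvd and Idi1 had differences of 0.40 and -0.31. Of 22 lipid droplet and fatty acid oxidation genes, 6 passed with a median of 0.19 (0.04 with an FPKM limit of 1), and Hilpda, which inhibits lipolysis, had 4.38 and 7.58, a difference of 0.67. Of 21 NRF2 targets, 13 passed with a median of 0.10, and the ferritin chain Fth1 had 1022 and 1370. None of the 22, 22 and 13 measured members of the glycolysis, sterol and NRF2 lists was past 0.5. The proteasome (21 of 31 passed, median 0.22), the aminoacyl-tRNA synthetases (13 of 20, 0.21), the lysosome and autophagy list (20 of 34, 0.12), the SR splicing factors (12 of 17, 0.08), the YAP and SRF targets (9 of 27, 0.12), the ERK feedback genes (7 of 18, 0.15) and the melanocyte lineage regulators (4 of 10, 0.09) held 0 members past 0.5.

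Gene models that are copies of other genes made up most of the larger differences. Of the 31 genes lower by at least 1, 23 were annotated as pseudogenes and 6 as protein coding. Of the 12 higher by at least 1, 7 were pseudogenes and 1 was protein coding. Among all 2758 genes, 1881 (68.2%) were protein coding and 708 (25.7%) pseudogenes. With protein-coding genes alone, the counts were 1 higher and 6 lower at 1, and 61 higher and 33 lower at 0.5. Of the 41 genes past 1 with an annotated length, 11 had fewer than 50 reads in the library with more, by the estimated depths. For 38 the 95% counting interval of the ratio left out 1, but the same 2 libraries had chosen these genes by their difference. The count of 38 is therefore no independent check of the differences.

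Rps12l1, a processed copy of the ribosomal gene Rps12, had the lowest difference of a named gene, -2.18, with 7.18 in SFM siKLF4 and 0.811 in TCM siKLF4, or about 33 and 5 reads. It was lower in TCM in all 4 pairs by at least 0.5, with 2.58 and 0.669 after siNT, 1.08 and 0.418 after siFN, and 10.8 and 0.458 after siKLF4-siFN. The sum of Rps12 and Rps12l1 was 9.90 in SFM siKLF4 and 2.50 in TCM siKLF4, and lower in TCM in each other pair too, by 0.95, 1.10 and 2.69 in the same order. Past 0.5 in one direction in all 4 pairs were 17 genes, 6 higher and 11 lower, and the 2 with an official symbol were Rps12l1 and Rn7s2, a copy of the 7SL RNA of the signal recognition particle. It had 6.42 and 16.0 after siKLF4, 3.35 and 14.6 after siNT, 9.40 and 14.2 after siFN, and 1.35 and 10.3 after siKLF4-siFN. Its copy Rn7s1 had 6.42 and 6.23 after siKLF4. The sum of both was 12.8 and 22.3, a difference of 0.75, but after siNT the sums were 16.8 and 16.5, so the shared direction of Rn7s2 did not hold for the sum.

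Some copies of mitochondrial genes in the nuclear genome had the largest differences at high expression. A stretch of chromosome 1 on the minus strand (GRCm38, chr1:24611535-24616197) holds 7 annotated pseudogenes of mitochondrial origin. Gm10925, the copy of mt-Atp6 (a subunit of ATP synthase), had an FPKM of 3872 in SFM siKLF4 and 953 in TCM siKLF4, a difference of -2.02. Gm28661, the copy of mt-Co2 (a subunit of cytochrome oxidase), had 6834 and 2941, a difference of -1.22. Gm28439 (mt-Nd4) had 1332 and 368, Gm10222 (mt-Nd4l) 415 and 120, and Gm29216 (mt-Co1) 4982 and 4127. The 7 copies summed to 20640 FPKM, or 13.6% of the summed FPKM of all genes, in SFM siKLF4, and to 10830, or 6.88%, in TCM siKLF4. These genes are short, and by FPKM times length they made up 1.34% and 0.674% of the reads.

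The sequences show what such a value can hold. In the GENCODE M21 transcripts, Gm10925 was identical to mt-Atp6 over all 678 of its bases, and Gm28661 to mt-Co2 over all 681. Gm29216 matched mt-Co1 at 482 of 483 aligned bases. The first 60 bases of Gm10925 (chr1:24614592-24614651, minus strand) and of mt-Atp6 (chrM:7927-7986, plus strand) are shown because a read from either could not be placed, with capitals for mismatches, of which there are 0.

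Gm10925: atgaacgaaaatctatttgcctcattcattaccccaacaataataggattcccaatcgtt

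mt-Atp6: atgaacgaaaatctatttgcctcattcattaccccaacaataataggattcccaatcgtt

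All 37 mitochondrial genes of the table were at 0 in all 8 libraries. Transcripts of the mitochondrial genome and of these copies therefore cannot be told apart here. In the other pairs Gm10925 had 4927 and 1201 after siNT, 1794 and 3066 after siFN, and 366 and 3610 after siKLF4-siFN. The 4 libraries highest in Gm10925 (SFM siNT, SFM siKLF4, TCM siFN and TCM siKLF4-siFN) were also the 4 highest in Hsp90aa1, Ssb and Kif5b, and SFM siKLF4-siFN was the lowest for each. Gm11410, a copy of mt-Cytb on chromosome 4 that matched it at 92.9% of 1142 aligned bases, had 626 in SFM siKLF4 and 195 in TCM siKLF4. On chromosome 2, Gm13340 (mt-Co1) had 4045 and 3297, a difference of -0.295. Gm13339 (mt-Nd2), also there, had 396 and 348, a difference of -0.187.

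**Figure D4:**
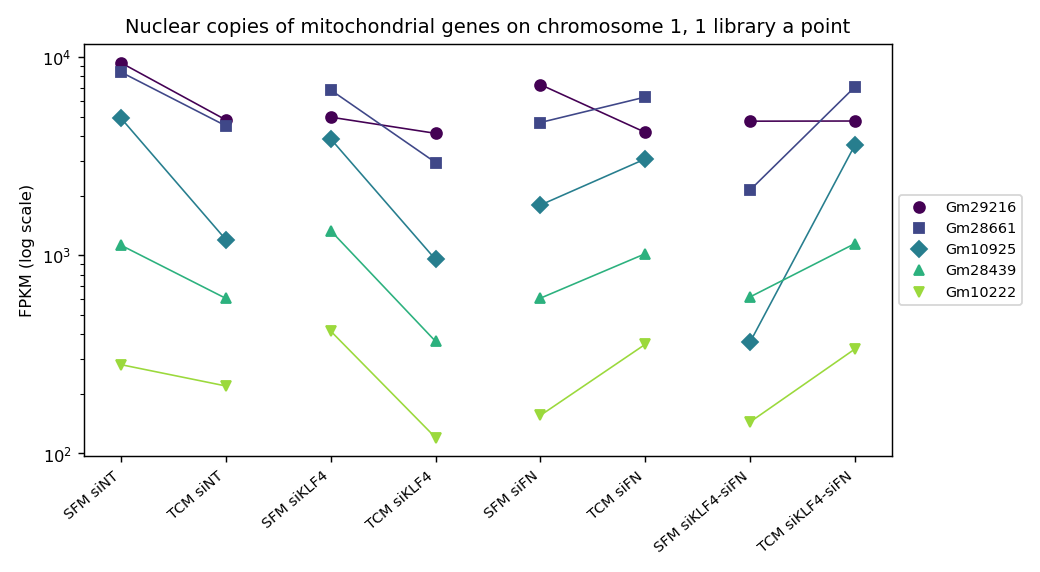
FPKM (log scale) of 5 nuclear copies of mitochondrial genes on chromosome 1 in the 8 libraries, with lines joining SFM to TCM of each siRNA treatment. Gm10925 goes from 3872 to 953 between the siKLF4 libraries and runs the other way, from 366 to 3610, after siKLF4-siFN.

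The differences of the siKLF4 pair followed the base composition and the length of the transcripts. Over 1881 protein-coding genes, Spearman's rho of the difference with the GC content of the longest annotated transcript was 0.52, and with its length -0.31, as a description across genes. Split into 5 equal bins of GC content, from the lowest to the highest, the genes had median differences of -0.09, 0.12, 0.17, 0.21 and 0.25. Of the 33 protein-coding genes lower by at least 0.5, 32 lay in the lowest bin, with 34.2% to 45.5% GC. The median GC content was 41.0% in these 33, 55.1% in the 61 that were higher, and 51.5% in all. The rho with GC content was 0.24 in the siNT pair, -0.18 in the siFN pair and -0.52 in the siKLF4-siFN pair. The rho with length was 0.13, 0.13 and 0.16 in the same order, opposite in sign to that of the siKLF4 pair. Of the 61 higher genes, 22 lay in the highest GC bin. In 5 equal bins of length, 36 of the 61 lay in the shortest bin, with 374 to 1387 bases. The part of base composition or length in the differences of Hsp90aa1, Ssb, Kif5b and the other low genes was not tested. A fit on GC content, its square and the log2 of length was taken off, a step added after seeing the data. After it, Kif5b had a difference of -1.34, Zfp281 -1.41, Ssb -1.04 and Hsp90aa1 -1.11. Eif3j2 (-0.44), Smim10l1 (-0.44), Zranb2 (-0.47) and Purb (-0.48) then missed 0.5, and 10 of the 14 low genes and all 14 high genes stayed past it.

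**Figure D5:**
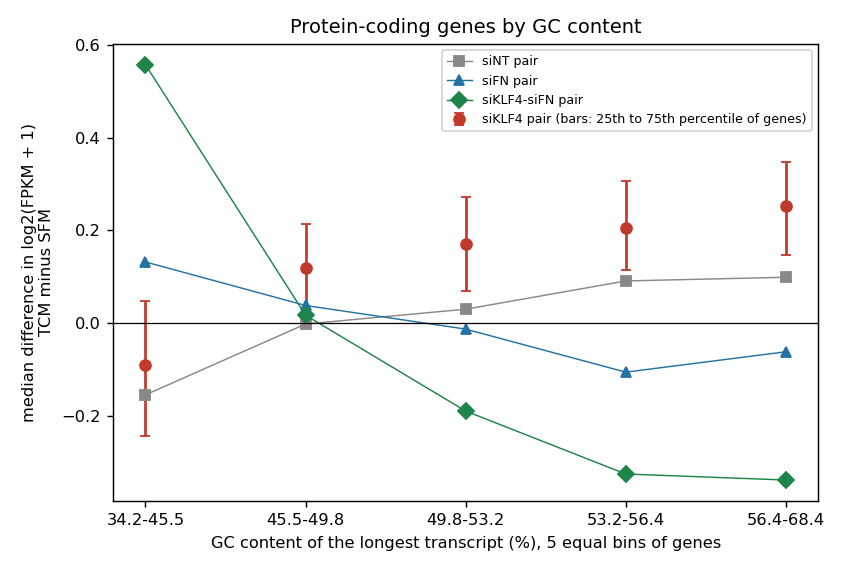
Median difference in log2(FPKM + 1), TCM minus SFM, of 1881 protein-coding genes in 5 bins of GC content, with the 25th to 75th percentile of genes for the siKLF4 pair and medians alone for the other pairs. The siKLF4 median goes from -0.09 in the lowest bin to 0.25 in the highest, and the siKLF4-siFN median runs the opposite way.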

How the data were processed

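RNA of B16-F10 cells was sequenced in 8 libraries, 1 per condition. The authors deposited FPKM values in 1 table. STAR 2.4.1d, Partek and the build mm10 are named in the submitters' processing notes, while how reads were counted, on which annotation and strand, and how libraries were scaled is not given in the sources used here. Libraries were matched to columns by title. Differences are on the log2(FPKM + 1) scale, with a pseudocount of 1, and understate the change of low genes. Genes whose FPKM reached 5 in 1 or both libraries of a pair were counted at 0.5 and 1 in each direction, without a test. Gene lists are described by the median difference of the members past that limit. The media by siKLF4 interaction was fitted with limma 3.58.1 (R 4.3.3) on genes whose mean FPKM over all 8 libraries reached 1, with media, siKLF4, siFN and media by siKLF4, a variance trend, two-sided p-values, Benjamini-Hochberg adjustment and 3 residual degrees of freedom. Nothing in the labels ties the libraries to separate cultures. With 1 library per condition, the residual holds the terms left out of the model: media by siFN, siKLF4 by siFN, and all 3 together. Its p-values weigh the interaction against those terms and not against a spread between replicates. Both steps were run on simulated data with known changes. The simulated data for the interaction held independent noise and none of the left-out terms. That run therefore does not show which changes the model could call in these libraries.

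Depth was estimated from the steps of low FPKM values, as the depth of those searched that put most of them near whole reads. It put 31.3% to 34.0% of them within 0.05 read of a whole number. A depth fixed beforehand would put 10% there by chance, and a searched one more. The estimate is therefore approximate, and no count test was run. Symbols of 42026 rows (90.4%) matched GENCODE M21. Sequences are from GENCODE M21 and RefSeq. Names that look like dates (27 rows) stayed unnamed. Named genes are the 14 highest and 14 lowest with an official symbol and up to 4 members of each of 31 lists, and a result this rule names is not reported here. Members, lists and limits were chosen with earlier results of these data known. Alternatives were other pseudocounts, filters and scalings, gene classes, and each library left out of the interaction.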

Additional observations from a re-analysis of the deposited data

Results flagged for a closer look

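Of the 28 named genes, 17 had a difference of at least 0.5 in the opposite direction in another media pair, each from single libraries, and these differences between pairs were not tested. Of the 14 low genes, 13 were higher in TCM after siKLF4-siFN: Hsp90aa1 by 3.03, Ssb by 2.73, Purb by 2.29, Zfp281 by 2.26, Kif5b by 2.23, Eif3j2 by 2.22, Eif3a by 1.94, Eif2s2 by 1.86, Tax1bp1 by 1.69, Smim10l1 by 1.65, Zranb2 by 1.62, Rab39b by 1.41 and Ranbp6 by 1.25. Among all genes of that pair, 19.4% were higher and 26.8% lower by at least 0.5. Of the 14 high genes, 4 were lower by at least 0.5 after siKLF4-siFN, a share near that of all genes. Znhit2 had a difference of -0.94, Hist2h2aa1 of -0.88, Hspe1 of -0.54 and Bola2 of -0.53. Hspe1 also had a difference of -0.73 after siFN, and Hist2h2aa1 of -0.675 after siNT.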

How the results depend on the processing

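The number of genes past a limit depended on pseudocount and filter. At a difference of 1, the 43 genes became 14 with a pseudocount of 5, 137 with an FPKM limit of 1 or no limit, 20 with a limit of 10, 8 with official symbols only and 7 with protein-coding genes only. At 0.5, the 270 genes became 126, 708 with a limit of 1, 905 with no limit, 163, 94 and 94 in the same order. A limit of 1 gave 310 higher and 398 lower at 0.5, no limit 387 and 518, and at 1 both gave 55 and 82, so the balance between directions moved. The pseudocount of 0.1, upper-quartile scaling, centring and the GC and length fit (added, as was the protein-coding count, after seeing the data) kept both counts within 1.5 times, and protein-coding genes alone at 1 gave 14.3% higher, against 27.9%. None of the 14 highest and 14 lowest named genes still past the limit changed direction, but most settings could not have changed it. Another pseudocount or filter leaves the sign as it is, and the shift of 0.14 on centring is below the smallest named difference, 0.73. Centring changed the sign of 7 of the 115 genes named from lists, each with a difference of at most 0.14, and lowered every list median by that shift. Other list medians that moved by 0.1 or more were mitosis (0.25 with a limit of 10, 0.14 after the GC and length fit), AP-1 (0.25 with a pseudocount of 5, 0.26 with a limit of 1), lipid droplet (0.04 and 0.03 with limits of 1 and 10), integrins (0.04 with a limit of 1), proteases (-0.01 with both limits) and, after the GC and length fit, SR factors (0.31), TGF-beta (0.18), heat shock (0.16) and histones (0.45). With a pseudocount of 5, 20 of the 28 stayed past 0.5. The interaction called 0 genes under each alternative, with 42 to 621 genes at an unadjusted p below 0.05 when 1 library was left out. The 621 came without SFM siKLF4, and 201 came with media by siFN in the model. No paired analysis was possible because each condition has 1 library. Depth limits genes of few reads: 35 of the 252 genes past 0.5 with a length had fewer than 50.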
